A study of Caenorhabditis elegans with 12 samples.

Results

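The genes described here are the Hedgehog-related and patched-related genes of the nematode Caenorhabditis elegans. They were chosen by name, as protein-coding genes called wrt (warthog), grd (groundhog), grl (ground-like), ptc (patched) or ptr (patched-related) with a number, together with qua-1 (quahog) and hog-1. The rule gave 85 of the 46245 genes in the expression table, namely 10 wrt, 16 grd, 31 grl, qua-1 and hog-1, 2 ptc and 24 ptr genes. No measured value entered the rule.

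In insects and vertebrates, Hedgehog is a secreted, lipid-modified signal, and Patched is the membrane protein with a sterol-sensing domain that receives it and holds the pathway silent in its absence. The worm has no clear ortholog of Hedgehog or of Smoothened, the relay protein downstream of Patched, but it has large families of secreted proteins that share the Hedgehog carboxy-terminal (Hog) domain or the family-specific amino-terminal domains, and many relatives of Patched. Genetic work in the worm ties several of these genes to the epidermis, to the cuticle that is rebuilt at each moult, and to glia and other interface cells.

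RNA was sequenced from whole synchronized L1 larvae of the wild-type strain N2 and of lin-52(n771) III mutants. LIN-52 is a subunit of the DREAM transcriptional repressor complex. Larvae of both strains were fed on bacteria for 3 h, then mock-treated or irradiated with 60 mJ/cm2 of UV-B, and collected 6 h later. This gave 4 groups (N2 mock and N2 UV, lin-52 mock and lin-52 UV) with 3 libraries each, which were chosen by the authors from 4 replicates on RNA quality. A single mutant strain was compared, so other genetic differences between it and N2 cannot be told apart from the lin-52 mutation. Values are FPKM, a measure of fragments per transcript length and sequencing depth, scaled between libraries as described under processing. Groups are given as mean ± SD of 3 libraries. Fold changes are differences of log2(FPKM + 0.5) ± SE, and this scale shrinks the change of genes at low levels.

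The lin-52 transcript itself ranged from 20.4 to 27.6 in N2 mock, 6.94 to 7.58 in lin-52 mock, 32.9 to 35.8 in N2 UV and 10.5 to 11.7 in lin-52 UV, so each library lay on the side of its label. Low values in the table placed the depth of the libraries between 0.938 and 1.28 times that of N2 mock 1. The share of ribosomal RNA was 22.6% in lin-52 mock 2, 19.8% in lin-52 mock 4 and 11.6% to 16.2% elsewhere. The median log2 fold change over the 12913 protein-coding genes tested lay between -0.02 and 0.00 in each comparison. The scaling between libraries brings this median near 0 by construction.

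Levels differed widely between the subfamilies. Of the 85 genes, 38 reached a mean of 1 FPKM over the 12 libraries and were tested, namely 5 wrt, 4 grd, 5 grl, qua-1 and hog-1, both ptc and 20 ptr genes. The other 47 did not, and 3 of them (grd-2, grd-4 and grl-25) were listed at 0 in all 12 libraries, while 20 more had a mean below 0.1. The grl genes were listed at low values: the median of their group means in N2 mock was 0.0814 FPKM, and 25 of 31 were listed at 0 in at least 1 library. A listed 0 need not mean low expression, since the abundant pharyngeal gene myo-1 was listed at 0 in 7 of 12 libraries and between 234 and 296 in the others. No ptr, ptc, qua-1 or hog-1 value was 0, and the median ptr gene stood at 6.68 in N2 mock. The filter kept a gene that was high in a single group, so counts over the tested genes do not describe all 85. The filter lay between grl-15, with a mean of 0.988, and grl-14, with a mean of 1.04.

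**Figure D1:**
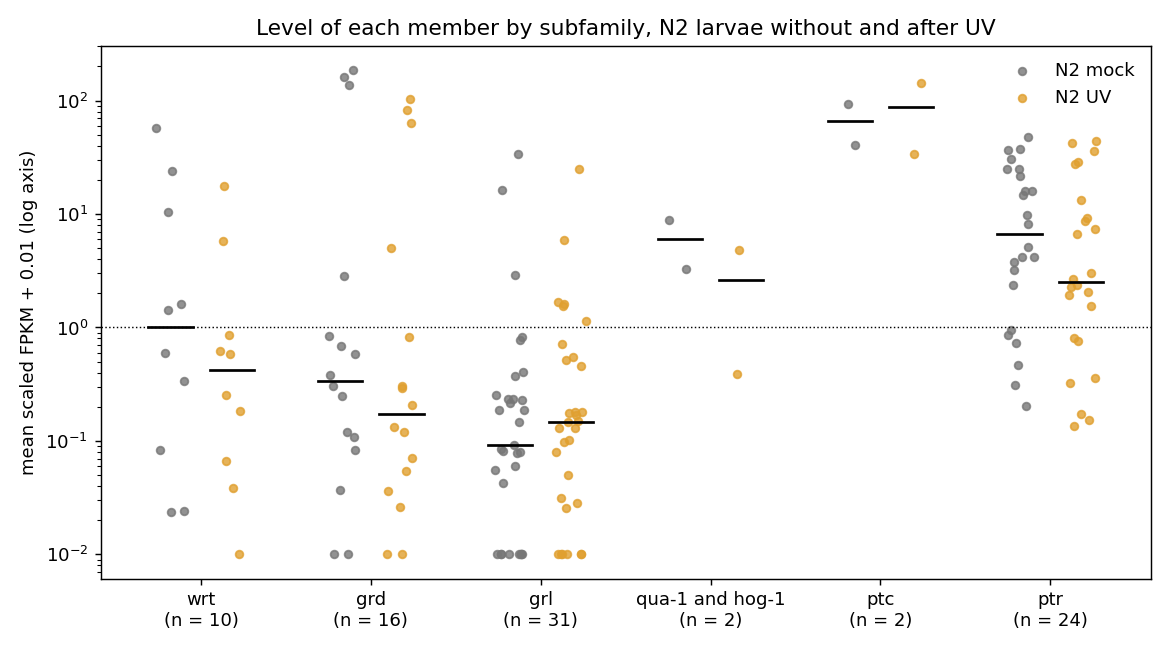
Mean scaled FPKM of each of the 85 genes in N2 mock and N2 UV (3 libraries each) on a log axis, with a small constant added so that genes at 0 can be drawn; each point is 1 gene, the horizontal bars are medians of the subfamily and the dotted line is 1 FPKM. The 3 grd genes of the chromosome IV cluster stand far above the other ligand-like genes, and most grl genes lie below 1 FPKM.

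Expression of the ligand-like genes was concentrated in few members. The highest were grd-10, at 186 ± 1.45 in N2 mock, grd-13 at 160 ± 6.66 and grd-3 at 137 ± 5.53, followed by wrt-10 at 57.9 ± 15, grl-4 at 33.5 ± 3.48 and wrt-5 at 24.1 ± 2.33. The spreads of neighbours in this order did not overlap. Among the membrane proteins, ptc-1 led with 92.5 ± 2.37, followed by ptr-21 at 47.8 ± 0.534, ptc-3 at 40.5 ± 1.05, ptr-8 at 37.1 ± 0.542 and ptr-4 at 37 ± 5.44. The spread of ptr-4 overlapped those of ptr-8 and ptc-3. Summed over the 57 wrt, grd and grl genes, the level was 638 to 645 in N2 mock, 644 to 658 in lin-52 mock, 289 to 362 in N2 UV and 380 to 445 in lin-52 UV.

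The comparison of UV-treated with mock-treated larvae moved most of the tested genes. In N2, 10 were higher and 24 lower of 38 (limma, adjusted p below 0.05). Among all tested genes UV also moved a large share, with 36.6% higher and 37% lower, so the members stood above the background in the lower direction and below it in the higher one. In lin-52 mutants, 8 were higher and 23 lower, against 33.1% and 33.5% of all tested genes. The median log2 fold change of the 38 was -0.61 in N2 and -0.41 in the mutants. For all tested genes it was 0.00 in both, where the scaling between libraries brings it by construction. By subfamily, 4 of 5 wrt, 3 of 4 grd, 3 of 5 grl, both of qua-1 and hog-1, 1 of 2 ptc and 11 of 20 ptr genes were lower in N2, and the 10 that were higher were grd-5, ptc-1 and 8 ptr genes. Leaving out 1 library at a time gave 31 to 36 calls in N2 and 27 to 32 in the mutants.

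Of the 38 genes, 22 were lower after UV in both strains, where 30.6% of all tested genes were, and 8 were higher in both, where 29.8% of all were (ptc-1, ptr-3, ptr-11, ptr-12, ptr-13, ptr-20, ptr-22 and ptr-23). Another 3 were called in N2 and not in the mutants (grd-5, grl-4 and ptr-21), ptr-8 was called in opposite directions, and wrt-6, grl-12, grl-14 and ptr-6 were called in neither strain. The comparisons in the 2 strains share no library, but their tests share an estimate of the spread from all 12 libraries and are not independent. RNA came from whole larvae, in which fewer cells of a type and less RNA per cell cannot be told apart. All libraries were collected 6 h after treatment and none at the time of irradiation. A fall after UV therefore cannot be told apart from a rise in the mock-treated larvae alone. Words such as fell, rose and decrease refer to UV-treated against mock-treated larvae at that time.

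**Figure D2:**
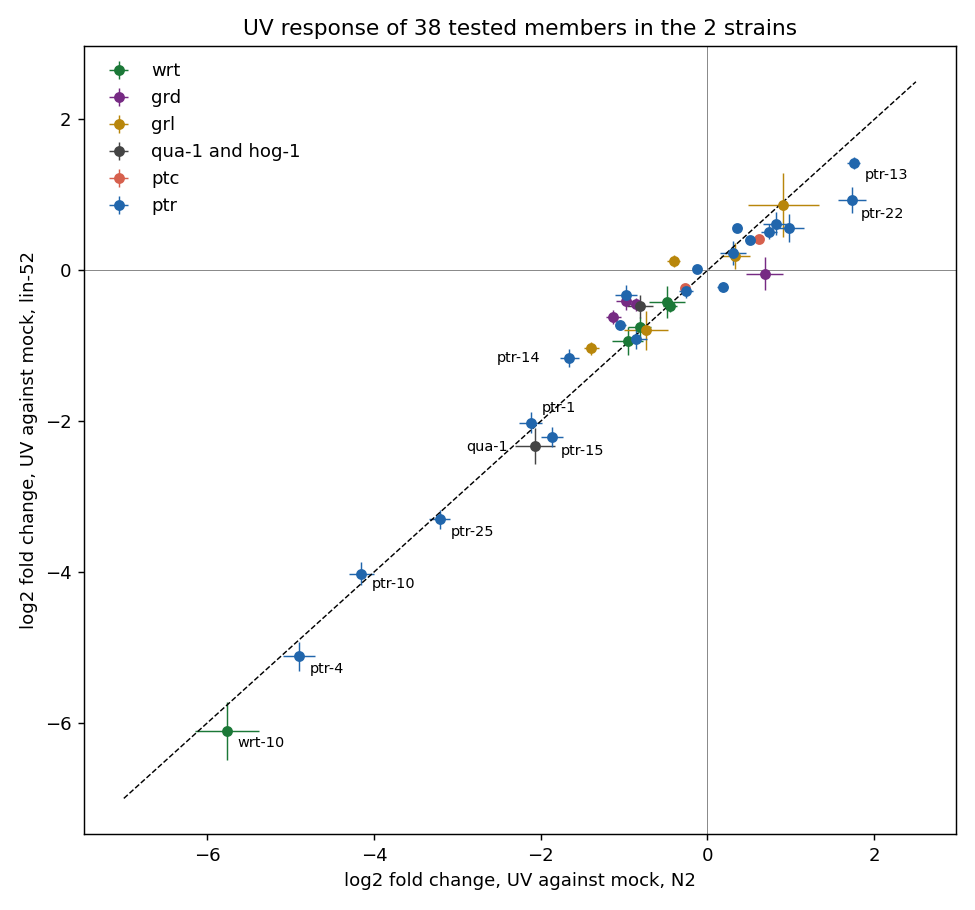
Log2 fold change of each of the 38 tested genes after UV in N2 (x axis) and in lin-52 mutants (y axis), with 1 point per gene coloured by subfamily, lines for the SE, and a dashed diagonal marking equal change. Most points lie close to the diagonal, from wrt-10 at -5.77 and -6.10 to ptr-13 at 1.75 and 1.42.

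Of the warthog genes, wrt-10 (WBGene00006956, chromosome II, 7533262 to 7534563, minus strand, WBcel235) stood far lower in UV-treated than in mock-treated larvae. It read 45.9, 74.6 and 53.1 FPKM in the N2 mock libraries and 0.213, 1.07 and 0.533 in N2 UV. In the mutants it read 104, 52.7 and 83.5 without UV and 0.248, 0.474 and 1.48 after it. The lowest mock library was N2 mock 1 and the highest UV library lin-52 UV 4, and the mock libraries of the 2 strains overlapped. The means differed 95.7-fold in N2 and 109-fold in the mutants, with log2 fold changes of -5.77 ± 0.38 and -6.10 ± 0.38 (limma adjusted p = 6.89e-08 and 7.11e-08). The interaction, the UV effect in the mutants minus that in N2, was -0.34 ± 0.54 for wrt-10 (limma adjusted p = 0.737).

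The neighbouring gene wrt-1, on the plus strand, ends 16 bases from the end of wrt-10, so the 2 genes meet tail to tail. Its level was much lower, 1.52, 1.8 and 1.44 in N2 mock and 0.477, 0.599 and 0.652 in N2 UV, and it fell by 0.96 ± 0.19 on the log2 scale in N2 and, in the mutants, by 0.94 ± 0.19 (limma adjusted p = 0.000581 and 0.000808). The groups did not overlap in either strain. Whether reads of wrt-10 were counted in wrt-1 was not tested. A smaller decrease was measured for wrt-3, from 10.4 ± 0.543 to 5.73 ± 0.764 in N2 and from 10.8 ± 0.697 to 6.29 ± 1.35 in the mutants (-0.81 ± 0.14 and -0.75 ± 0.14, limma adjusted p = 0.000231 and 0.000497). For wrt-5 the change was smaller again, from 24.1 ± 2.33 to 17.6 ± 0.855 in N2 and from 25.1 ± 1.91 to 17.9 ± 1.54 in the mutants (-0.44 ± 0.08 and -0.47 ± 0.08, limma adjusted p = 0.000471 and 0.00036). The fifth tested warthog gene, wrt-6, read 1.41 ± 0.277 in N2 mock and 0.854 ± 0.0403 in N2 UV and was not called (-0.49 ± 0.21, limma adjusted p = 0.0563).

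Large decreases, though smaller than that of wrt-10, also occurred among the patched-related genes. The product of ptr-4 takes part in the apical extracellular matrix that precedes the cuticle. ptr-4 (WBGene00004219, chromosome X, 6060758 to 6065986, minus strand) read 32.2, 42.9 and 35.9 in N2 mock and 0.935, 0.731 and 0.604 in N2 UV, and 50.6, 35.7 and 47.1 in lin-52 mock and 0.491, 0.795 and 1.15 in lin-52 UV. The mock and UV libraries were far apart in both strains, and the strains overlapped within each treatment. The log2 fold changes were -4.90 ± 0.19 and -5.12 ± 0.19 (limma adjusted p = 1.02e-09 and 1.29e-09), or 48.9-fold and 54.8-fold between means.

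The promoter of ptr-10 is used to mark glia that ensheath sensory endings. ptr-10 (WBGene00004224, chromosome I, 5662143 to 5667160, plus strand) read 14.3, 16.4 and 13.2 in N2 mock and 0.289, 0.369 and 0.389 in N2 UV, and 20.8, 14.7 and 17.8 in lin-52 mock and 0.565, 0.475 and 0.834 in lin-52 UV. The mock and UV groups were far apart, and the lin-52 UV libraries lay above the N2 UV libraries without a call for that difference (0.39 ± 0.15, limma adjusted p = 0.073). The UV effect was -4.15 ± 0.15 in N2 and -4.02 ± 0.15 in the mutants (limma adjusted p = 5.88e-10 and 1.3e-09). Of 5 other tested glia, socket and sheath markers (hlh-17 was not tested), 3 were higher and 2 lower after UV in N2, with a median of 0.11. In the mutants 2 were higher and 2 lower, with a median of 0.06. The summed level of the list was 85.3 to 90.5 in N2 mock, 84.7 to 93.6 in lin-52 mock, 74.4 to 76.8 in N2 UV and 71.5 to 79.6 in lin-52 UV. Among the 5 tested markers, mls-2 changed the most (-0.60 ± 0.19, limma adjusted p = 0.0149), and none of the 5 was near 0.

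Next came ptr-25 (chromosome III, 10488124 to 10500239, plus strand), with 23.8, 26.6 and 24.7 in N2 mock against 2.4, 2.15 and 2.2 in N2 UV. In the mutants it went from 28.6, 24.3 and 28.4 to 2.02, 1.97 and 3.01. The effects of -3.21 ± 0.12 and -3.30 ± 0.12 (limma adjusted p = 9.49e-10 and 1.32e-09) corresponded to an 11.1-fold and an 11.6-fold lower mean. Decreases of ptr-1 (9.83 ± 0.903 to 1.9 ± 0.501 in N2, 11 ± 1.08 to 2.33 ± 0.208 in the mutants) and ptr-15 (4.19 ± 0.259 to 0.792 ± 0.129, and 5.3 ± 0.52 to 0.753 ± 0.138) were of similar size to each other. Their log2 fold changes were -2.12 ± 0.14 and -2.02 ± 0.14 for ptr-1 and -1.86 ± 0.13 and -2.21 ± 0.13 for ptr-15 (limma adjusted p = 1.59e-07 or lower in each case).

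The quahog gene qua-1, which encodes a Hog-domain protein needed for moulting, belonged to the same set. It read 2.7, 4.22 and 2.79 in N2 mock and 0.283, 0.481 and 0.376 in N2 UV, and 5, 2.6 and 4.56 in lin-52 mock and 0.292, 0.318 and 0.555 in lin-52 UV. No mock library came near a UV library, and qua-1 fell by 2.07 ± 0.24 in N2 and, in the mutants, by 2.33 ± 0.24 on the log2 scale (limma adjusted p = 9.22e-06 and 4.77e-06). The other Hog-domain gene, hog-1, whose product lacks the amino-terminal domains of the larger families, changed less. It read 8.64, 7.77 and 10.3 in N2 mock, 5.71, 4.72 and 4.15 in N2 UV, 6.41, 7.92 and 7.56 in lin-52 mock and 5.89, 3.97 and 5.56 in lin-52 UV. The groups did not overlap within a strain, and the log2 fold changes were -0.81 ± 0.16 and -0.48 ± 0.16 (limma adjusted p = 0.000589 and 0.0184). The call in the mutants was lost without lin-52 mock 3, lin-52 mock 4 or lin-52 UV 3 (-0.45 to -0.32).

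Taken after their values were seen, the 7 genes with a log2 fold change of -1.5 or lower in both strains were wrt-10, qua-1, ptr-1, ptr-4, ptr-10, ptr-15 and ptr-25. They also shared an order of libraries in N2 mock, lin-52 mock and lin-52 UV, but not in N2 UV. There, N2 UV 1 was the highest library for 3 of the 7, N2 UV 2 for 3 and N2 UV 3 for 1. In all 7 genes, N2 mock 2 was the highest N2 mock library, lin-52 mock 2 the highest and lin-52 mock 3 the lowest lin-52 mock library, and lin-52 UV 4 the highest lin-52 UV library. Their summed level was 132, 180 and 143 in N2 mock, and 227, 145 and 197 in lin-52 mock. Of the moulting cycle genes, 17 of 20 were tested (nas-36, bli-1 and bli-5 were not), and most followed the same order. N2 mock 2 was the highest of its group for 13 of 17, lin-52 mock 2 for 13 and lin-52 UV 4 for 14. In N2 UV they too shared no order, with N2 UV 1 highest for 6 of the 17, N2 UV 2 for 5 and N2 UV 3 for 6. Of the 17 moulting cycle genes, 12 were lower and 2 higher after UV in N2, and 12 lower and 1 higher in the mutants, with medians of -2.09 and -2.07. Their summed level was 645 to 798 in N2 mock, 679 to 958 in lin-52 mock, 72.4 to 75.6 in N2 UV and 69.7 to 87.1 in lin-52 UV. The largest decreases among them in N2 were those of noah-2, which encodes an apical matrix protein (-5.37 ± 0.21), the protease inhibitor gene mlt-11 (-5.25 ± 0.26) and fbn-1 (-5.22 ± 0.22), with limma adjusted p of 5.61e-09 or lower. lin-52 mock 2 was also the library with the largest share of ribosomal RNA. The part of either in the result was not tested.

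**Figure D3:**
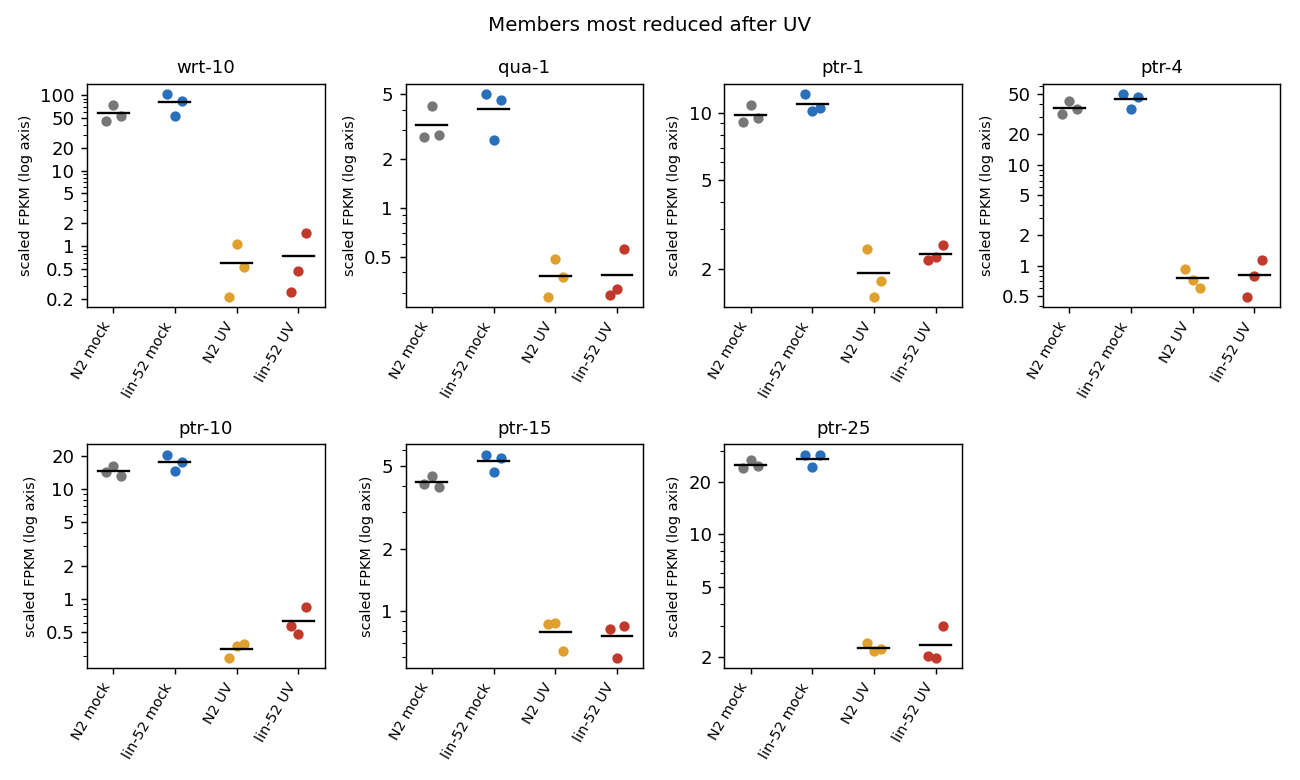
Scaled FPKM of the 7 genes with the largest decreases after UV, on log axes, with 1 point per library and a short line at the mean of each group of 3. In every panel the mock libraries of both strains lie above all UV libraries, as for ptr-25 with 23.8 to 28.6 against 1.97 to 3.01.

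Several other genes of the epidermis were also lower after UV, though not all. Of 6 hypodermis markers, 5 were lower in N2 and 4 in the mutants, with medians of -3.82 and -3.97, and their summed level was 213 to 278 in N2 mock, 221 to 315 in lin-52 mock, 86.1 to 89.6 in N2 UV and 86.1 to 94.4 in lin-52 UV. The large decreases were those of cuticle collagen genes, led by dpy-7 (-5.94 ± 0.32 in N2), dpy-3 (-5.62 ± 0.26) and dpy-10 (-4.06 ± 0.18), with limma adjusted p of 1.28e-08 or lower. Of the transcription factor genes that mark the same tissue, lin-26 went from 56.1 ± 1.61 in N2 mock to 48.7 ± 3.13 in N2 UV and elt-3 from 38.8 ± 1.13 to 35.3 ± 1.79, and no marker was listed at 0. lin-26 was called lower in N2 (-0.20 ± 0.05, limma adjusted p = 0.00174) and not in the mutants (-0.10 ± 0.05, limma adjusted p = 0.0782). elt-3 was called in neither strain (-0.14 ± 0.06 and -0.10 ± 0.06, limma adjusted p = 0.0754 and 0.174). The part of epidermal cell number in the decreases was not tested.

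Among 15 tested regulators of the epidermis and of moulting (lin-29 was not tested), 9 were lower and 3 higher after UV in N2, and 8 lower and 3 higher in the mutants, with medians of -1.15 and -0.97. The largest decreases were those of the period homolog lin-42 (-3.48 ± 0.17 in N2, -3.18 ± 0.17 in the mutants), myrf-1 (-2.52 ± 0.11 and -2.45 ± 0.11) and the nuclear receptor gene nhr-23 (-2.43 ± 0.10 and -2.32 ± 0.10), with limma adjusted p of 1.57e-08 or lower.

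The groundhog genes gave a different picture. grd-13, grd-3 and grd-10 lie one after the other on the plus strand of chromosome IV, within 3530 bases from 3438312 to 3441841, with gaps of 148 and 602 bases. The 3 genes held 75.2% of the summed wrt, grd and grl level in N2 mock, 72.5% in lin-52 mock, 77.1% in N2 UV and 80.6% in lin-52 UV. The promoter of grd-10 has been used to mark seam cells, the lateral stem-like cells of the epidermis.

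grd-10 (WBGene00001699) read 187, 186 and 184 in N2 mock and 189, 192 and 177 in lin-52 mock. The N2 UV libraries read 115, 92.5 and 102, and the lin-52 UV libraries 118.6, 146 and 145. Both strains fell, and each lin-52 UV library lay above each N2 UV library, with 118.6 against 115 as the closest pair. The UV effect was -0.85 ± 0.09 in N2 and -0.45 ± 0.09 in the mutants (limma adjusted p = 2.39e-06 and 0.000581).

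grd-13 (WBGene00001702) read 165, 153 and 163 in N2 mock, 142, 168 and 153 in lin-52 mock, 101, 67.1 and 77.6 in N2 UV and 109, 124 and 117 in lin-52 UV. It showed the same order of groups, with the strains overlapping without UV and apart after it. It fell by 0.98 ± 0.12 in N2 and, in the mutants, by 0.40 ± 0.12 (limma adjusted p = 1.36e-05 and 0.0106). grd-3 (WBGene00001692) read 137, 132 and 143 in N2 mock, 124, 141 and 131 in lin-52 mock, 73.4, 56.5 and 58.8 in N2 UV and 78.6, 88.6 and 90.7 in lin-52 UV. Its groups followed those of grd-13, and it fell by 1.13 ± 0.09 in N2 and, in the mutants, by 0.62 ± 0.09 (limma adjusted p = 3.5e-07 and 8.29e-05). For the 3 genes lin-52 UV 2 was the lowest of its group and N2 UV 1 the highest.

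After UV the 3 genes were 0.52 ± 0.12 (grd-13), 0.46 ± 0.09 (grd-3) and 0.40 ± 0.09 (grd-10) higher in the mutants than in N2 (limma adjusted p = 0.00778, 0.00363 and 0.00496). Without UV the same differences were -0.06 ± 0.12, -0.06 ± 0.09 and 0.00 ± 0.09 (limma adjusted p = 0.809 or higher). The interaction was called for grd-13 (0.58 ± 0.17, limma adjusted p = 0.0493) and grd-3 (0.51 ± 0.13, limma adjusted p = 0.0272) and not for grd-10 (0.40 ± 0.12, limma adjusted p = 0.0531). For grd-3 it was lost on leaving out any of N2 mock 1, N2 mock 4, lin-52 mock 2, lin-52 mock 4, N2 UV 2, N2 UV 3, lin-52 UV 3 and lin-52 UV 4 (0.43 to 0.51, limma adjusted p up to 0.0704). For grd-13 it was also lost without N2 mock 2 (0.44 to 0.61 over the same libraries and N2 mock 2, limma adjusted p up to 0.11), and the grd-13 call was lost as well on FPKM as deposited, with libraries scaled to an equal sum, with a pseudocount of 0.1, without the filter on low values and without the intensity trend (0.58 in each).

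Seam cell markers did not all move in 1 direction. Of 6, 4 were lower and 1 higher after UV in each strain, with medians of -1.40 in N2 and -1.16 in the mutants, and the largest decreases were those of nhr-73 (-2.31 ± 0.11 in N2), bro-1 (-2.16 ± 0.20) and elt-6 (-1.65 ± 0.10), with limma adjusted p of 1.03e-06 or lower. In the mutants after UV, egl-18, elt-6 and nhr-73 were higher than in N2 (0.23 ± 0.05, 0.37 ± 0.10 and 0.57 ± 0.11, limma adjusted p = 0.0189 or lower). The marker that rose was rnt-1, with effects of 0.68 ± 0.14 and 0.52 ± 0.14 in N2 and mutant larvae (limma adjusted p = 0.00109 and 0.00708), and ceh-16 was not called (0.37 ± 0.21 and 0.05 ± 0.21). After UV the strain differences of rnt-1 and ceh-16 were -0.10 ± 0.14 and -0.20 ± 0.21, neither of them called, and that of bro-1 was 0.26 ± 0.20, also not called. The summed level of the 6 was 82.7 to 89.5 in N2 mock, 91.5 to 97.1 in lin-52 mock, 34.8 to 38.5 in N2 UV and 42.1 to 42.6 in lin-52 UV, and no marker was at 0. Without UV, nhr-73 alone of the 6 differed between the strains (0.48 ± 0.11, limma adjusted p = 0.0233). Their part in the grd values was not tested.

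**Figure D4:**
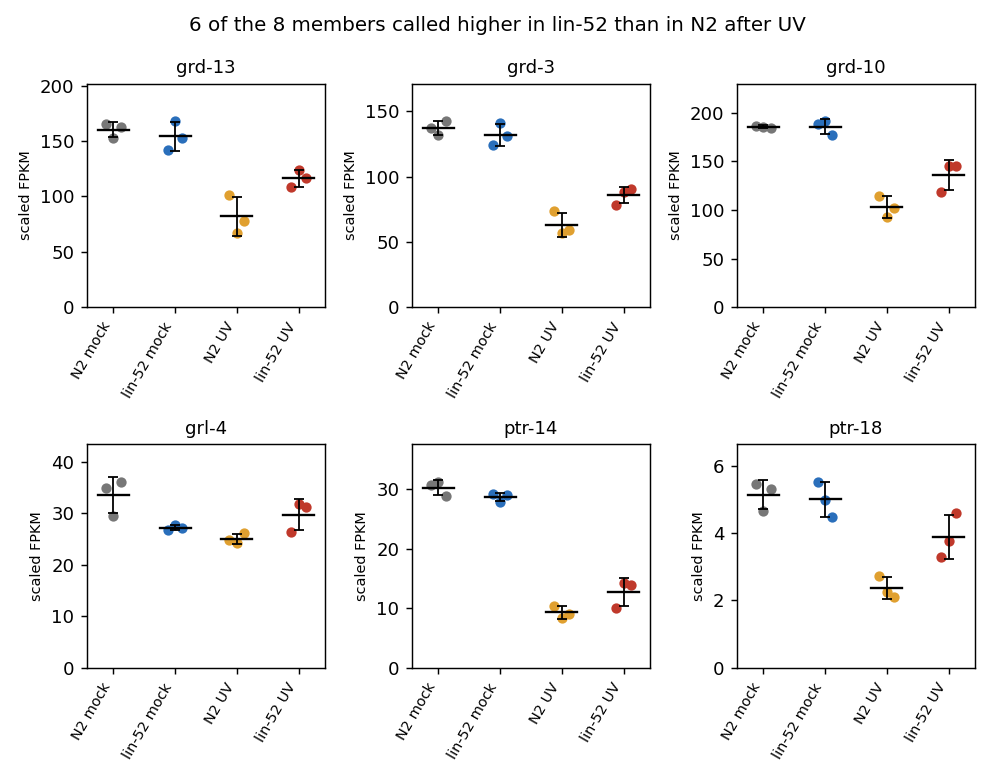
Scaled FPKM of 6 of the 8 genes called higher in lin-52 UV than in N2 UV, with 1 point per library and the mean ± SD of each group of 3 as a line with whiskers. For the 3 grd genes the strains overlap without UV, and every lin-52 UV library lies above every N2 UV library, as for grd-10 with 118.6 to 146 against 92.5 to 115.

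The remaining tested groundhog gene, grd-5 (WBGene00001694, chromosome V, 8619032 to 8619870, plus strand), was the only one of the 38 called between the strains without UV, where 5.33% of all tested genes were called. It read 3.02, 2.29 and 3.14 in N2 mock and 6.74, 4.85 and 6.43 in lin-52 mock, groups that did not overlap, with a difference of 0.97 ± 0.22 (limma adjusted p = 0.0256). UV raised it in N2 to 3.2, 6.43 and 5.32 (0.69 ± 0.22, limma adjusted p = 0.0142), and in the mutants it read 4.78, 6.79 and 5.89 (-0.04 ± 0.22, limma adjusted p = 0.876). After UV the strains overlapped, and the interaction of -0.73 ± 0.31 was not called (limma adjusted p = 0.155). The strain difference lost its call without any of N2 mock 1, N2 mock 2, N2 mock 4, lin-52 mock 2 and lin-52 mock 4. It was also lost with the replicate number as a block (0.85 to 1.04 over all of these). The UV effect in N2 lost its call without N2 mock 2 or N2 UV 2 (0.50 to 0.57).

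Of the 5 tested ground-like genes, grl-4 was the most abundant and the one whose UV effect differed between strains. It read 34.8, 29.5 and 36.1 in N2 mock, 26.8, 27.7 and 27.2 in lin-52 mock, 24.9, 24.2 and 26.1 in N2 UV and 26.3, 31.7 and 31.2 in lin-52 UV. By mean, N2 mock was the highest group and N2 UV the lowest, with the mutants between them. Without UV every mutant library lay below every N2 library, without a call for that difference (-0.29 ± 0.08, limma adjusted p = 0.0701). UV lowered it in N2 (-0.41 ± 0.08, limma adjusted p = 0.000766), the change in the mutants was 0.12 ± 0.08 (limma adjusted p = 0.209), and the interaction was 0.53 ± 0.12 (limma adjusted p = 0.0162). After UV it was 0.24 ± 0.08 higher in the mutants (limma adjusted p = 0.0486), a call that was lost in 12 of 22 alternatives, among them leaving out any of 9 libraries (N2 mock 1 and all lin-52 mock and N2 UV libraries, lin-52 UV 3 and lin-52 UV 4; 0.19 to 0.27).

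grl-10 read 16.3, 17.2 and 15.2 in N2 mock, 6.1, 5.04 and 6.55 in N2 UV, 15.3, 14 and 14.7 in lin-52 mock and 6.49, 6.89 and 7.35 in lin-52 UV. It fell in both strains without overlap, by 1.39 ± 0.09 and by 1.04 ± 0.09 on the log2 scale (limma adjusted p = 5.83e-08 and 1.14e-06). It overlaps the ribosomal protein gene rpl-39 on the other strand, which stood at 4322 in N2 mock and 3905 in N2 UV, and whether the authors' counting used strand is not given in the sources used here. grl-8 was lower by 0.74 ± 0.26 in N2 and, in the mutants, by 0.80 ± 0.26 (limma adjusted p = 0.0233 and 0.0178), from 2.86 ± 0.761 to 1.54 ± 0.567 and from 2.74 ± 0.293 to 1.43 ± 0.641. Each of its calls was lost without 1 of 3 libraries, namely N2 mock 1, N2 UV 2 or N2 UV 3 in N2 (-0.74 to -0.53) and lin-52 mock 2, lin-52 UV 2 or lin-52 UV 4 in the mutants (-0.75 to -0.62). grl-12, at 0.761 ± 0.662 in N2 mock and 1.66 ± 0.762 in N2 UV, and grl-14, at 0.816 ± 0.242 and 1.14 ± 0.106, were not called. For grl-12, N2 mock 1 was listed at 0, against 1.21 in N2 mock 2 and 1.08 in N2 mock 4.

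The 2 patched genes moved in opposite directions after UV. ptc-1 (WBGene00004208, chromosome II, 7893222 to 7900515, plus strand), which is needed for cytokinesis in the germ line, read 91.4, 90.9 and 95.2 in N2 mock and 141, 145 and 140 in N2 UV, and 85.8, 91.8 and 88.2 in lin-52 mock and 126, 116 and 113 in lin-52 UV. It rose in both strains and less in the mutants, with no overlap between any UV group and another group. The effects were 0.61 ± 0.04 and 0.42 ± 0.04 (limma adjusted p = 1.41e-07 and 5.88e-06), and after UV it was lower in the mutants than in N2 (-0.26 ± 0.04, limma adjusted p = 0.00155), while the interaction was not called (-0.20 ± 0.06, limma adjusted p = 0.0672).

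ptc-3 (WBGene00004210, chromosome II, 2845412 to 2852593, minus strand), an essential gene, read 39.6, 41.6 and 40.1 in N2 mock and 33.9, 32.5 and 34.4 in N2 UV, and 40.2, 39.6 and 41 in lin-52 mock and 33.7, 34.5 and 33.9 in lin-52 UV. The strains were nearly identical in level and the UV groups lay below both mock groups. The decrease was small but larger than the spread, -0.27 ± 0.04 in N2 and -0.24 ± 0.04 in the mutants (limma adjusted p = 3.67e-05 and 0.000108). Of the germline markers, 4 were tested beside ptc-1 (nos-2 was not), of which 3 were higher after UV in N2 and 2 in the mutants, with medians of 0.17 and 0.32, and their summed level was 32.4 to 33.9 in N2 mock, 69.2 to 76.5 in lin-52 mock, 37.3 to 39.1 in N2 UV and 89 to 97.4 in lin-52 UV. The strain difference in that sum lay mostly in glh-1 (1.96 ± 0.06 without UV, limma adjusted p = 2.63e-09), a change that ptc-1 did not share (-0.06 ± 0.04, limma adjusted p = 0.511).

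Of the 20 tested patched-related genes, 8 were higher and 11 lower after UV in N2 (40% and 55%, against 36.6% and 37% of all tested genes), and 7 were higher and 11 lower in the mutants (35% and 55%, against 33.1% and 33.5%). The share of higher calls thus lay near the background in both strains. The largest increase was that of ptr-13 (WBGene00004227, chromosome II, 11156589 to 11162481, minus strand), which read 9.11, 7.32 and 8.22 in N2 mock and 29.1, 28.5 and 28.7 in N2 UV, and 7.65, 8.43 and 7.92 in lin-52 mock and 23.9, 21 and 22 in lin-52 UV. It rose 3.5-fold in N2 and 2.79-fold in the mutants between means, with the mutants below N2 after UV in every library. The effects were 1.75 ± 0.08 and 1.42 ± 0.08 (limma adjusted p = 2.18e-09 and 2.07e-08), the strain difference after UV was -0.36 ± 0.08 (limma adjusted p = 0.00496), and the interaction was -0.33 ± 0.11 (limma adjusted p = 0.0717).

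ptr-22, a low-level gene, read 0.496, 0.446 and 0.42 in N2 mock, 2.44, 2.56 and 3.01 in N2 UV, 0.664, 0.624 and 0.538 in lin-52 mock and 2.01, 1.68 and 1.23 in lin-52 UV. Like ptr-13 it rose more in N2, by 1.73 ± 0.17 against 0.93 ± 0.17 (limma adjusted p = 1.89e-06 and 0.000407), and the interaction of -0.79 ± 0.24 did not pass (limma adjusted p = 0.0527). After UV it was lower in the mutants (-0.58 ± 0.17, limma adjusted p = 0.0244). That call was lost without N2 UV 2, N2 UV 3, lin-52 UV 3 or lin-52 UV 4. The replicate number as a block lost it too (-0.60 to -0.44 over all of these). ptr-3 rose from 4.19 ± 0.597 to 8.76 ± 1.06 in N2 and from 4.41 ± 0.286 to 6.96 ± 2.34 in the mutants (0.98 ± 0.18 and 0.56 ± 0.18, limma adjusted p = 0.000424 and 0.0168). In the mutants its increase rested on lin-52 UV 2, at 9.65 against 5.78 and 5.46, and was 0.32 without that library (limma adjusted p = 0.0534).

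Smaller increases in both strains were measured for ptr-20 (0.82 ± 0.15 and 0.62 ± 0.15), ptr-11 (0.74 ± 0.10 and 0.51 ± 0.10), ptr-23 (0.51 ± 0.05 and 0.41 ± 0.05) and ptr-12 (0.36 ± 0.05 and 0.57 ± 0.05), with limma adjusted p of 0.00351 or lower. Of these, ptr-12 alone had the higher estimate in the mutants, and its interaction was not called (0.21 ± 0.08, limma adjusted p = 0.107). ptr-23 was the most abundant, at 25.1 ± 1.04 in N2 mock and 35.8 ± 1.68 in N2 UV. After UV it was lower in the mutants, at 30.9 ± 1.61 (-0.21 ± 0.05, limma adjusted p = 0.0129). That call was lost without lin-52 UV 4, after scaling libraries to an equal sum and with the replicate number as a block (-0.18 to -0.16).

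ptr-8 moved in opposite directions in the 2 strains. It read 37.1, 36.5 and 37.6 in N2 mock, 38.7, 36.2 and 37.3 in lin-52 mock, 42.9, 40.5 and 43.2 in N2 UV and 36.2, 30.6 and 29.6 in lin-52 UV. The N2 UV libraries lay above all others, and the lin-52 UV libraries at or below the mock libraries. UV changed it by 0.18 ± 0.07 in N2 and, in the mutants, by -0.22 ± 0.07 (limma adjusted p = 0.0231 and 0.0106), with an interaction of -0.40 ± 0.09 (limma adjusted p = 0.019) and a strain difference after UV of -0.39 ± 0.07 (limma adjusted p = 0.00127). The increase in N2 was not called with quantile normalization or with the replicate number as a block. It was also not called without N2 mock 1, N2 mock 2, N2 UV 1 or N2 UV 3 (0.12 to 0.18 over all of these). The decrease in the mutants was not called on FPKM as deposited or with libraries scaled to an equal sum (-0.16 to -0.14). The interaction was not called with the replicate number as a block (-0.40, limma adjusted p = 0.055).

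**Figure D5:**
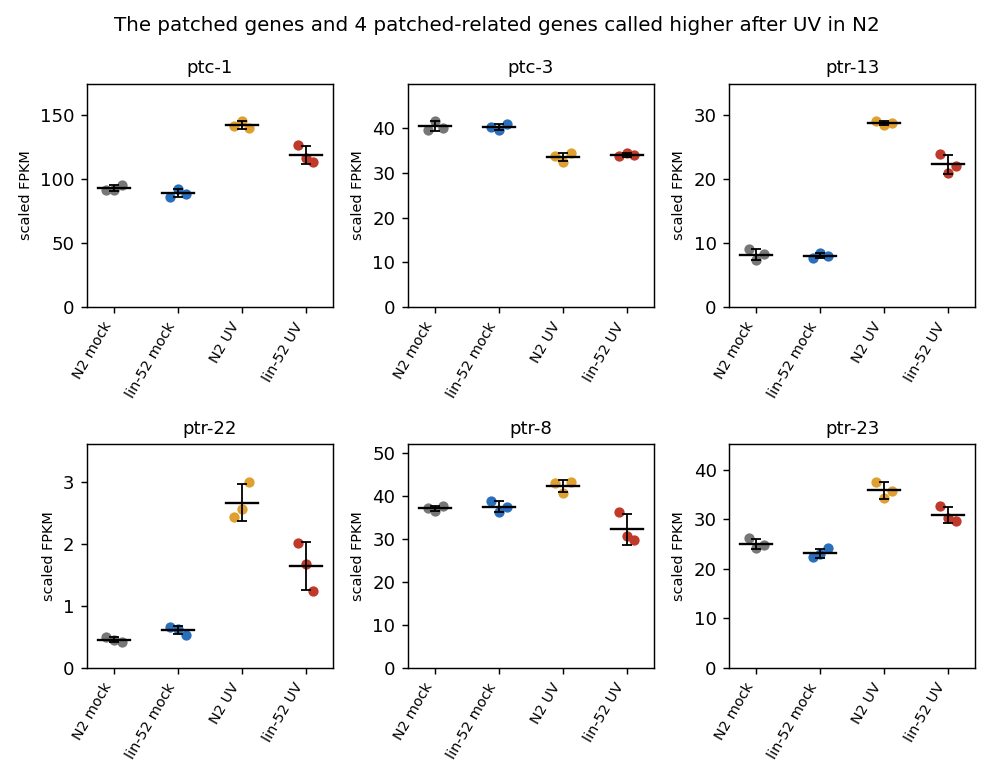
Scaled FPKM of ptc-1, ptc-3 and 4 ptr genes called higher after UV in N2, with 1 point per library and the mean ± SD of each group of 3 as a line with whiskers. ptc-1 and the 4 ptr genes stand lower in every lin-52 UV library than in any N2 UV library, and ptc-3 is lower after UV in both strains alike.

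Among the patched-related genes that fell less than the strongest set, ptr-14 read 30.7, 31.3 and 28.9 in N2 mock, 10.4, 8.33 and 9.12 in N2 UV, 29.2, 27.9 and 29 in lin-52 mock and 9.99, 14.2 and 13.9 in lin-52 UV. It fell by 1.66 ± 0.12 in N2 and, in the mutants, by 1.16 ± 0.12 on the log2 scale (limma adjusted p = 1.12e-07 and 3.66e-06). lin-52 UV 2 lay within the N2 UV libraries and the other mutant libraries above them, and the strain difference after UV of 0.42 ± 0.12 (limma adjusted p = 0.0201) was lost in a fit of only the libraries compared and without N2 UV 2, N2 UV 3, lin-52 UV 3 or lin-52 UV 4 (0.33 to 0.42). The interaction was 0.49 ± 0.17 (limma adjusted p = 0.077).

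ptr-18, which acts in the epidermis and helps keep progenitor cells quiescent in starved L1 larvae, read 5.45, 4.66 and 5.31 in N2 mock, 5.53, 4.99 and 4.49 in lin-52 mock, 2.73, 2.25 and 2.11 in N2 UV and 3.3, 3.77 and 4.6 in lin-52 UV. Its N2 UV libraries lay below every other library. The effects were -0.98 ± 0.13 in N2 and -0.33 ± 0.13 in the mutants (limma adjusted p = 3.01e-05 and 0.0428), with a strain difference after UV of 0.61 ± 0.13 (limma adjusted p = 0.00544) and an interaction of 0.65 ± 0.19 (limma adjusted p = 0.045). The effect in the mutants was not called on FPKM as deposited, with libraries scaled to an equal sum or without the filter on low values. It was also not called in a fit of only the libraries compared or with the replicate number as a block. The call was lost as well without N2 mock 1, N2 mock 4, lin-52 mock 2 or lin-52 mock 3. Leaving out N2 UV 2, lin-52 UV 2 or lin-52 UV 3 also lost it (-0.33 to -0.23 over all of these). The interaction was not called with quantile normalization, without the filter or with the replicate number as a block. Leaving out any library other than N2 UV 1 and lin-52 UV 2 lost it too (0.53 to 0.72 over all of these).

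ptr-5 read 16.1, 14.9 and 16.5 in N2 mock, 14.2, 14.8 and 15.9 in lin-52 mock, 7.42, 7.22 and 7.56 in N2 UV and 8.44, 8.95 and 9.17 in lin-52 UV. It fell by 1.05 ± 0.06 in N2 and, in the mutants, by 0.73 ± 0.06 (limma adjusted p = 3e-08 and 1.04e-06), and the UV groups of the strains did not overlap (0.24 ± 0.06, limma adjusted p = 0.0145). The interaction was 0.32 ± 0.09 (limma adjusted p = 0.0418). It was not called with quantile normalization, without the filter on low values or with the replicate number as a block. Leaving out any library other than N2 mock 2, lin-52 mock 4 and lin-52 UV 2 lost it too (0.29 to 0.33 over all of these). The strain difference was not called without N2 UV 2 or lin-52 UV 4 (0.22 for both). ptr-2 fell from 3.19 ± 0.268 to 1.53 ± 0.119 in N2 (-0.86 ± 0.13, limma adjusted p = 9.43e-05) and from 3.46 ± 0.563 to 1.6 ± 0.145 in the mutants (-0.91 ± 0.13, limma adjusted p = 7.61e-05).

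ptr-21, the most abundant patched-related gene, changed little. It read 47.9, 48.3 and 47.3 in N2 mock, 45, 42 and 44.9 in N2 UV, 48.4, 46.7 and 47.5 in lin-52 mock and 47.3, 49.9 and 47.3 in lin-52 UV. The N2 UV libraries lay below all others (-0.12 ± 0.04 against N2 mock, limma adjusted p = 0.0134, and 0.13 ± 0.04 for the mutants against N2 after UV, limma adjusted p = 0.0258). The first call was lost without N2 UV 2, on FPKM as deposited and after scaling libraries to an equal sum (-0.08 to -0.05). The second was lost in a fit of only the libraries compared and with the replicate number as a block. It was also lost without N2 UV 2 or lin-52 UV 3 (0.09 to 0.14 over all of these). ptr-24 was lower by 0.26 ± 0.08 in N2 and, in the mutants, by 0.28 ± 0.08 (limma adjusted p = 0.0163 and 0.012), calls that were both lost after scaling libraries to an equal sum, and without N2 mock 1 or N2 UV 3 and without lin-52 mock 2 or lin-52 UV 4 respectively (-0.24 to -0.18). ptr-6, at 2.37 ± 0.357 in N2 mock and 3.03 ± 0.234 in N2 UV, was called in no comparison.

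The comparison of the strains after UV called 13 of the 38 tested genes. Higher in the mutants were grd-3, grd-10, grd-13, grl-4, ptr-5, ptr-14, ptr-18 and ptr-21, 8 of 38 where 13% of all tested genes were higher. Lower were ptc-1, ptr-8, ptr-13, ptr-22 and ptr-23, 5 of 38 where 15.2% of all were lower, so the share of lower calls lay near the background. The median over the 38 was 0.04. Leaving out single libraries gave 8 to 15 calls, with 8 without N2 UV 2 and 8 without lin-52 UV 4.

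The interaction tests whether UV acted differently in the 2 strains. It was called for 6 of the 38, positive for grd-3, grd-13, grl-4, ptr-5 and ptr-18 and negative for ptr-8, where 5.44% of all tested genes were positive and 6.2% negative. The median over the 38 was -0.04. The count moved between 2 and 13 when single libraries were left out: it was 2 or 3 without N2 mock 1, N2 mock 4, lin-52 mock 2, lin-52 mock 4, N2 UV 2, N2 UV 3, lin-52 UV 3 or lin-52 UV 4, and 13 without lin-52 UV 2. Without UV, the strains differed in grd-5 alone, and the median over the 38 was 0.01. That count was 0 without N2 mock 1, N2 mock 4, lin-52 mock 2 or lin-52 mock 4, and 2 without lin-52 UV 2.

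The other proteins of the route, as far as worm relatives exist, were read beside the members. Of 11 such genes, 3 were higher and 7 lower after UV in each strain, with medians of -0.25 and -0.18. Both genes related to the acyltransferase that attaches palmitate to Hedgehog fell, hhat-1 from 8.15 ± 0.876 to 0.531 ± 0.282 in N2 (-3.10 ± 0.21 in N2, -3.26 ± 0.21 in the mutants) and hhat-2 by less (-1.23 ± 0.13 and -1.15 ± 0.13), with limma adjusted p of 7.68e-06 or lower. tra-1, the worm member of the GLI family of transcription factors and a regulator of sex determination, fell by 0.86 ± 0.06 in N2 and, in the mutants, by 0.55 ± 0.06, with an interaction of 0.31 ± 0.09 (limma adjusted p = 0.042).

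Of 7 dispatched-like, NPC1-like and other sterol-sensing-domain genes, 5 were tested (ptd-2 and ncr-2 were not), and 3 were higher and 1 lower after UV in each strain, with medians of 0.42 and 0.27. che-14, a dispatched-like gene that acts in apical secretion in the epidermis and in glia, fell (-1.19 ± 0.14 and -0.96 ± 0.14, limma adjusted p = 7.31e-06 and 6.18e-05). The patched-related gene daf-6 of sheath and socket glia rose (0.52 ± 0.14 and 0.53 ± 0.14, limma adjusted p = 0.00616 and 0.00599), as did the NPC1 homolog ncr-1 (0.48 ± 0.05 and 0.40 ± 0.05) and hmgr-1, which encodes HMG-CoA reductase (0.42 ± 0.05 and 0.27 ± 0.05), with limma adjusted p of 0.000275 or lower.

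Markers of other tissues, which whole larvae also hold, moved by less than the hypodermis and seam lists. The pharynx list includes myo-1, whose listed values of 0 were described above. After UV in N2 and in the mutants the list medians were 0.36 and 0.29 for 5 intestine genes (3 higher and 0 lower, then 4 higher and 1 lower), 0.12 and 0.10 for 5 pharynx genes (2 and 2, then 2 and 1), -0.58 and -0.32 for 4 body wall muscle genes (0 and 4 in both), and -0.60 and -0.33 for 5 neuron genes (1 and 3, then 0 and 4).

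The 47 genes below the filter were also fitted without it, 44 of them with any value above 0. Then 3 were higher and 6 lower in N2, where 55.5% of the 18565 genes in that fit were called in either direction, and 4 higher and 7 lower in the mutants, where 49.2% were. None was called in the other 3 comparisons. Chosen here after their values were seen, ptr-19 went from 0.846 in N2 mock to 0.143 in N2 UV, ptr-9 from 0.717 to 0.163, grd-1 from 0.683 to 0.124 and grd-16 from 0.823 to 0.199, and each was called lower in both strains. grl-15 was called higher in both, from 0.394 to 1.6 in N2 and from 0.652 to 1.31 in the mutants. wrt-2, whose promoter is widely used to mark seam cells, was lower in both, from 0.582 to 0.245 in N2 and from 0.432 to 0.18 in the mutants. At these levels a library rests on few fragments, and the fold changes on the log2(FPKM + 0.5) scale are strongly shrunk.

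Of the tested genes, 8 overlap another protein-coding gene on the other strand (grl-10, grl-14, hog-1, ptr-1, ptr-8, ptr-10, ptr-15 and ptr-18), and reads of such a pair could not be told apart if strand was not used. atat-2, the partner of hog-1, rose by 0.81 in N2, and spas-1, the partner of ptr-1, rose by 0.54, while hog-1 and ptr-1 fell. F55F8.8, the partner of ptr-10, stood at 0.22 in N2 mock and 1.67 in N2 UV. The partner of ptr-15, mec-1, fell as well, from 16.3 to 7.72 in N2, where ptr-15 went from 4.19 to 0.792. Over the chromosomes, 32 of the 85 genes lie on V, 13 each on IV and X, 11 on II, 9 on I and 7 on III. All 11 on chromosome II passed the filter, and 8 of 32 on chromosome V did.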

How the data were processed

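From RNA depleted of ribosomal RNA, the authors made stranded libraries, read them as paired ends, aligned the reads with Tophat 2.0.10 in the QuickNGS workflow (Ensembl 85) and deposited FPKM computed with Cufflinks 2.1.1, per the labels and methods. The genome build, the reads per library and whether counting used strand are not given in the sources used here. The 12 columns were matched to samples by their labels.

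Gene identifiers were matched to the WBcel235 annotation of Ensembl 115 (45990 of 46245). FPKM were scaled by median-ratio size factors over protein-coding genes above 0 in all libraries (0.969 to 1.05). The 12913 protein-coding genes whose mean reached 1 FPKM were kept, and log2(FPKM + 0.5) was fitted with 4 group means over all 12 libraries in limma 3.58.1 (R 4.3.3), with an intensity trend (prior df 3.28). Each of 5 contrasts was adjusted by Benjamini-Hochberg over all tested genes, and an adjusted p below 0.05 was called. Replicates are described as biological, and 3 libraries per group limit the precision: the median SE was 0.0838, and 0.118 for the interaction. Because the values are FPKM, no count model was used, and the authors' own tests, made with DESeq2, were not used here.

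Values per library are given for ptc-1, ptc-3, qua-1, hog-1 and up to 6 called members with the largest change in each of wrt, grd, grl and ptr, and up to 3 genes are named from each other list. Further ptr genes are named where they were called in a comparison of strains. Members and lists were chosen with earlier results of these data known. Alternatives were FPKM as deposited, equal sums, quantile normalization, a pseudocount of 0.1 or 1, a filter at 5 FPKM or none, no trend, only the libraries of a comparison, the replicate number as a block, and each library left out. In data simulated like the strain comparison without UV, 28% of genes changed 1.2-fold, 73.2% changed 1.5-fold and 89.2% changed 2-fold were recovered. Sequences were not used here.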

Additional observations from a re-analysis of the deposited data

Results flagged for a closer look

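The interaction was called for 6 of the 38 tested genes, each by limma's test of the difference itself. Of all tested genes, 5.44% were called positive and 6.2% negative. The UV effect in lin-52 mutants minus that in N2 was 0.65 for ptr-18, 0.58 for grd-13, 0.53 for grl-4, 0.51 for grd-3 and 0.32 for ptr-5, on the log2(FPKM + 0.5) scale. It was -0.40 for ptr-8, which rose in N2 and fell in the mutants. For the genes with a positive value, the decrease was smaller in the mutants or not called there. For grl-4 the mutants also stood below N2 without UV (-0.29 ± 0.08, not called). The limma adjusted p of these interactions lay between 0.0162 (grl-4) and 0.0493 (grd-13), close to the threshold, in 3 libraries per group. The interaction call was lost in 14 alternatives for grd-13, 13 for ptr-18, 12 for ptr-5, 8 for grd-3 and 1 for ptr-8. For grl-4 it was not lost.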

How the results depend on the processing

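The calls for UV were stable in number: 34 of 38 in N2 and 31 of 38 in lin-52 mutants stayed within 1.5 times under each of the 22 alternatives. Counts of strain differences were less so. Without UV the single call (grd-5) gave 0 calls with a mean of at least 5 FPKM, which leaves grd-5 out and tests 25 members, and 0 to 2 with 1 library left out. After UV the 13 calls became 8 to 15 with 1 library left out, and the 6 interaction calls became 2 to 13. With the replicate block, the counts were 0 without UV and 3 for the interaction, and within 1.5 times in the other comparisons. Deviations of same-numbered libraries from their group means correlated with r from -0.16 to 0.25 in 13 pairs, over 0.1 in 3. With 3 libraries per group this cannot tell whether same-numbered libraries were handled together. Calls lost with the replicate block are therefore counted as lost. Of 85 called pairs of member and comparison, 62 kept their call in every alternative that tested them, 23 lost it in at least 1, and 0 reversed. The cause of these losses was not tested. Fewer libraries also leave fewer degrees of freedom. Read totals are unknown, so no counting error could be given for members below 1 FPKM. In the strain comparison without UV, changes near 1.2-fold would mostly be missed. The UV comparisons were not simulated, and changes of about that size were called there, as for ptc-3 (-0.27 ± 0.04 in N2).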
